A study of Mus musculus with 3 samples.

Results

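miR-28a, miR-151 and miR-708 are microRNA hairpins whose sequence is traced to LINE2, an old family of retrotransposons that no longer moves. The 5 mature miRNAs described here are miR-151-3p, miR-151-5p, miR-28a-3p, miR-28a-5p and miR-708-5p, chosen by name from the 1915 mature miRNAs of the count files, and all 5 names were found. The opposite arm of the miR-708 hairpin, miR-708-3p, is set beside them to give that hairpin its arm balance. Small RNA had been sequenced from vesicles that B16 mouse melanoma cells release (labelled exosomes, strain C57BL/6J, melanoma), from vesicles of the mouse skin line JB6 (strain BALB/c, labelled normal), and from the B16 cells themselves (strain C57BL/6J, melanoma). The vesicles had been pelleted by ultracentrifugation. Each source gave 1 library from a single cell line. Differences therefore have no check against replicates, and the 95% intervals cover counting error alone.

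A miRNA hairpin is cut into a duplex with a 5p strand and a 3p strand. The Argonaute protein keeps one strand as the guide, which finds its targets mainly through the seed at bases 2 to 8, and the other strand is usually degraded. Which strand dominates can differ between tissues, and the ratio of the strands, like any ratio of counts from the same library, does not depend on how libraries are scaled. In human B cells miR-28-5p restrains proliferation. In human liver cancer miR-151-5p is known to promote migration together with its host gene, the focal adhesion kinase gene. In human breast cancer miR-708-5p is known to restrain metastasis.

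All 3 hairpins are intronic, within protein-coding genes read from the same strand (GRCm38, GENCODE M21). Mir151 is at chr15:73254815-73254882, minus strand, in Ptk2, which encodes focal adhesion kinase, and also within an intron of the antisense gene 1700085D07Rik. Mir28a is at chr16:24827855-24827940, plus strand, in Lpp, which encodes a LIM-domain protein of focal adhesions. Mir708 is at chr7:96249424-96249532, plus strand, in Tenm4, which encodes a teneurin of the cell surface. RefSeq (GRCm38.p6) gave a sequence for 3 of the 5 miRNAs and for miR-708-3p. They are shown because the family resemblance lies in them, 5′ to 3′, with the seed in capitals.
miR-28a-5p: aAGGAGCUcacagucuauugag
miR-708-5p: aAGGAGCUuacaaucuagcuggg
miR-28a-3p: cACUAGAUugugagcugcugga
miR-708-3p: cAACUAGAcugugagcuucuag

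miR-28a-5p (chr16:24827868-24827889) and miR-708-5p (chr7:96249450-96249472) share the seed AGGAGCU, which no other of the 1679 mature miRNAs in the RefSeq table carries. Counted from the 5′ end of miR-28a-5p, the first difference between them is C9U, and 16 of 22 aligned bases match. The 3p strands are also alike, with 17 of 21 bases matching between miR-28a-3p (chr16:24827908-24827929) and miR-708-3p (chr7:96249496-96249517), but shifted by 1 base, so that their seeds, ACUAGAU and AACUAGA, are not the same. A stretch of 13 bases in miR-708-3p, uagacugugagcu, is the exact complement of part of miR-28a-5p, the 5p strand of another hairpin. The RefSeq table held no entry for miR-151-3p, miR-151-5p or miR-28c, so the search for shared seeds did not cover them. miR-28b and miR-28c were listed at 0 in all 3 libraries. The sources used here do not state how reads that match more than 1 entry were counted, so the split between near-identical entries is uncertain.

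The B16 exosome library held 45677 miRNA reads, the JB6 exosome library 4495956 and the B16 cell library 7925726. No count between 1 and 9 occurred in any file. A listed 0 was therefore read as at most 9 reads, which is 197 RPM (of all miRNA reads) in B16 exosomes, 2.002 RPM in JB6 exosomes and 1.14 RPM in B16 cells. Together the 5 miRNAs held 2.03% of the miRNA reads of B16 exosomes (1.90 to 2.16), 3.11% in JB6 exosomes (3.09 to 3.12) and 0.852% in B16 cells (0.846 to 0.858). Nearly all of these reads were miR-151-3p, with 93.9% of the family's reads in B16 exosomes, 94.9% in JB6 exosomes and 90.8% in B16 cells.

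miR-151-3p was the most abundant of the 5 in each library. It had 870 reads in B16 exosomes (19047 RPM, 17813 to 20342), 132689 in JB6 exosomes (29513 RPM, 29357 to 29670) and 61303 in B16 cells (7735 RPM, 7674 to 7796). Its rank was 13 in B16 exosomes, 8 in JB6 exosomes and 24 in B16 cells, and the 3 intervals do not overlap. Its nearest neighbours in rank were miR-26a-5p and miR-99a-5p in B16 exosomes, miR-143-3p and miR-10a-5p in JB6 exosomes, and miR-5099 and miR-148b-3p in B16 cells. The interval of miR-99a-5p in B16 exosomes (17601 to 20116 RPM) overlapped its own.

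miR-28a-3p came next, with 57 reads in B16 exosomes (1248 RPM, 945 to 1616), 6968 in JB6 exosomes (1550 RPM, 1514 to 1587) and 4015 in B16 cells (507 RPM, 491 to 522). It was lowest in B16 cells, and the intervals of the B16 and JB6 exosome libraries overlapped. Its rank was 71 in B16 exosomes, 48 in JB6 exosomes and 110 in B16 cells.

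The 5p strands were scarcer than miR-28a-3p in each library. miR-28a-5p was listed at 0 in B16 exosomes, with 61 reads in JB6 exosomes (13.6 RPM, 10.4 to 17.4) and 1066 in B16 cells (134 RPM, 127 to 143). miR-151-5p was listed at 0 in B16 exosomes, with 31 reads in JB6 exosomes (6.90 RPM, 4.68 to 9.79) and 844 in B16 cells (106 RPM, 99.4 to 114). miR-708-5p was listed at 0 in both exosome libraries and had 292 reads in B16 cells (36.8 RPM, 32.7 to 41.3). All 3 were highest in B16 cells among the libraries deep enough to show them. At the share they held in B16 cells, the B16 exosome library would have held 6.14 reads of miR-28a-5p, 4.86 of miR-151-5p and 1.68 of miR-708-5p. Each lies under the smallest count that the files list, so the B16 exosome library could not show these strands at the level of the parent cells.

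miR-708-3p, the partner of miR-708-5p, was listed at 0 in B16 exosomes, had 1513 reads in JB6 exosomes (337 RPM, 320 to 354) and 252 in B16 cells (31.8 RPM, 27.99 to 36.0). In B16 cells the pair lay close together, with miR-708-5p and miR-708-3p at a ratio of 1.16 (0.976 to 1.38), whose interval includes 1. Every other pair of neighbours in the order of levels within a library differed beyond counting error. The closest of them were miR-28a-5p over miR-151-5p at 1.26 (1.15 to 1.38) in B16 cells and at 1.97 (1.26 to 3.14) in JB6 exosomes.

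**Figure D1:**
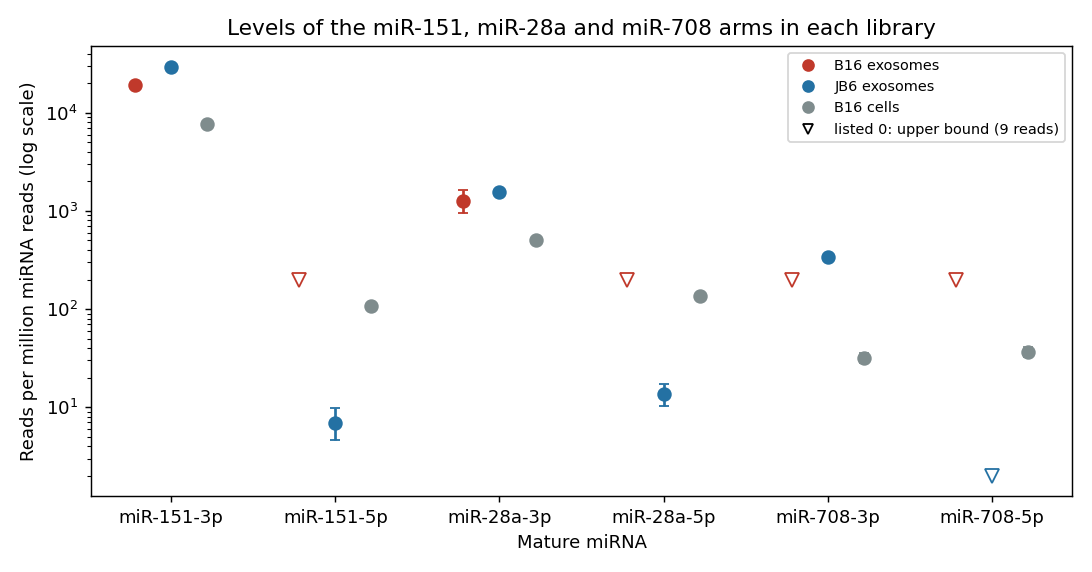
Level of each strand of the miR-151, miR-28a and miR-708 hairpins in RPM of miRNA reads (log axis), in the B16 exosome (red), JB6 exosome (blue) and B16 cell (grey) libraries, 1 library each. Bars are exact 95% counting intervals and open triangles are upper bounds for a listed 0; miR-151-3p and miR-28a-3p are lowest in B16 cells, and miR-708-3p is 337 RPM in JB6 exosomes while miR-708-5p is at most 2.002 RPM there.

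The balance of the strands was examined first within each library, since it needs no scaling. The 3p strand took 98.6% of the reads of the miR-151 hairpin in B16 cells (98.5 to 98.7), 79.0% of those of miR-28a (77.9 to 80.1) and 46.3% of those of miR-708 (42.1 to 50.6). In JB6 exosomes the 3p share was 99.98% for miR-151 (99.97 to 99.98), 99.1% for miR-28a (98.9 to 99.3) and at least 99.4% for miR-708, where the 5p strand was listed at 0. In B16 exosomes it was at least 99.0% for miR-151 and at least 86.4% for miR-28a, and both strands of miR-708 were listed at 0. All 3 hairpins thus had a larger 3p share in JB6 exosomes than in B16 cells, and the hairpins differed more from each other in B16 cells than in JB6 exosomes.

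**Figure D2:**
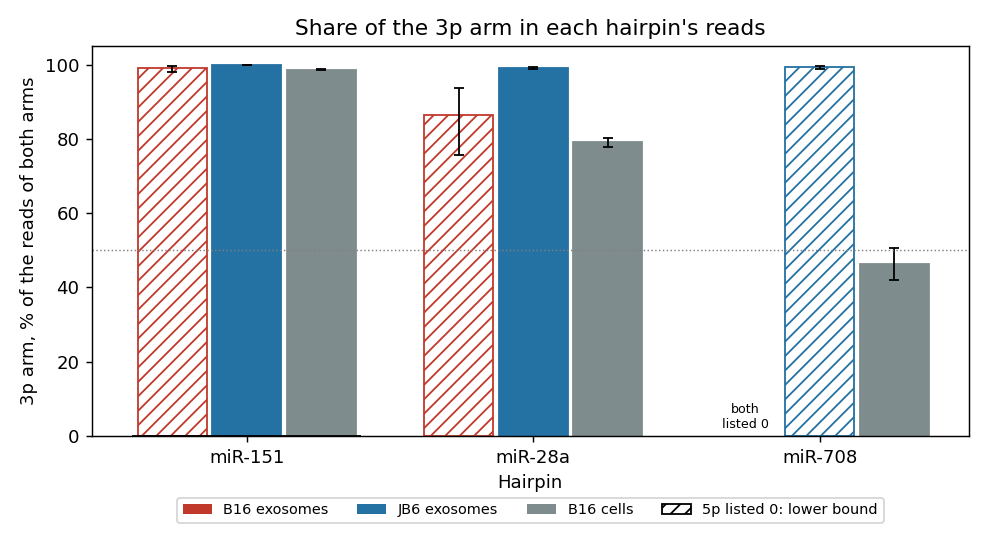
Share of the 3p strand in the reads of both strands (percent) for each hairpin in B16 exosomes, JB6 exosomes and B16 cells, with exact 95% counting intervals. Hatched bars are lower bounds where the 5p strand was listed at 0; the miR-708 bar is 46.3% in B16 cells and at least 99.4% in JB6 exosomes.

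As a ratio of 3p to 5p reads, miR-28a stood at 114 (88.8 to 149) in JB6 exosomes and 3.77 (3.52 to 4.03) in B16 cells, a 30.3-fold difference (23.4 to 39.4). For miR-151 the ratio was 4280 (3015 to 6300) in JB6 exosomes and 72.6 (67.9 to 77.8) in B16 cells, a 58.9-fold difference (41.2 to 84.3). For miR-708 it was at least 168 in JB6 exosomes and 0.863 (0.726 to 1.02) in B16 cells, a difference of at least 195-fold, with 99.0-fold as the interval limit nearest to 1. The most abundant strand of miR-708 was therefore the 3p strand in JB6 exosomes, while neither strand led beyond counting error in B16 cells. Against B16 cells, the listed 0 counts of B16 exosomes left the strand balance of miR-28a and miR-151 unresolved, as for 60 of the 74 hairpins compared. On that background 5.41% of the 74 moved toward 3p and 4.05% toward 5p. Against JB6 exosomes both were unresolved too, as were 55 of the 68 hairpins compared, while 7.35% moved toward 3p and 10.3% toward 5p in B16 exosomes. The miR-708 hairpin, with both strands at 0 in B16 exosomes, was not compared there.

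Strand balance differed between JB6 exosomes and B16 cells in many hairpins. Of 136 hairpins with both strands annotated and 30 or more reads in each library, 49, or 36% of them, moved toward 3p in JB6 exosomes by at least 2-fold with an interval that excluded 1, and 28 (20.6%) moved toward 5p. The 3 hairpins described here were among the 49. By the measured shares alone, the 3p strand held the majority in JB6 exosomes and the minority in B16 cells in 12 of the 136, and in 10 the reverse held. The 12 include miR-708, whose interval in B16 cells spans an equal split. Across the 63 hairpins with all 4 counts listed the median log2 difference was 2.35 toward 3p in JB6 exosomes. The differences of miR-28a and miR-151 lay above that median, on a background that leaned the same way.

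**Figure D3:**
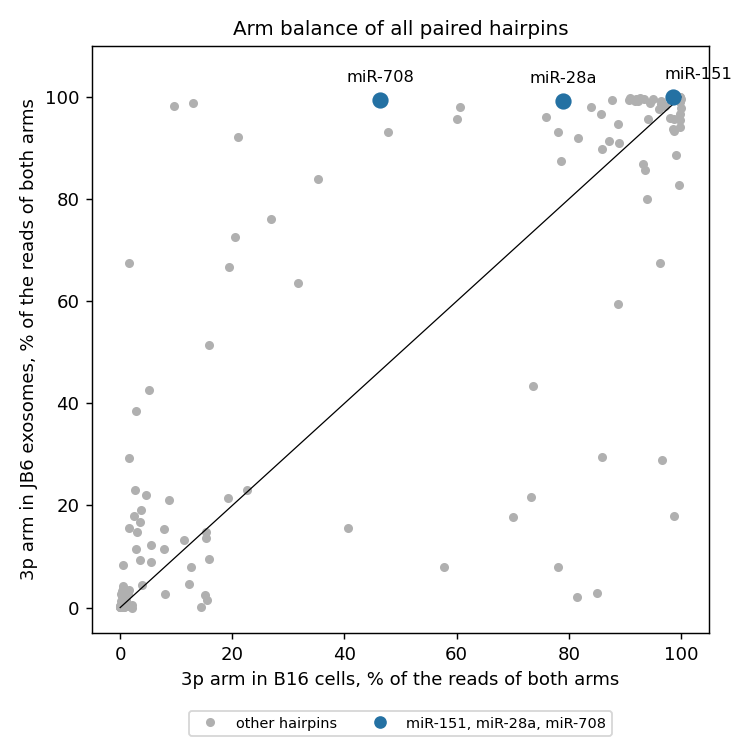
The 3p share of the reads of both strands in JB6 exosomes (vertical axis, percent) against that in B16 cells (horizontal axis, percent) for 136 hairpins, with a listed 0 drawn at 9 reads and the diagonal marking equal shares. miR-151, miR-28a and miR-708 (blue) all lie above the diagonal, at 98.6%, 79.0% and 46.3% in B16 cells, and other hairpins are found on both sides of it.

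B16 exosomes were compared with B16 cells to ask how the vesicles of the melanoma line differ from the cells that shed them. Vesicle against cell and library depth both differ in this pair and cannot be told apart. miR-151-3p and miR-28a-3p were both higher in the exosomes by almost the same factor, 2.46-fold for miR-151-3p (2.30 to 2.63) and 2.46-fold for miR-28a-3p (1.86 to 3.20). The 3 members that are 5p strands were not resolved, because their listed 0 in the exosomes allowed ratios up to 1.46 for miR-28a-5p, 1.85 for miR-151-5p and 5.35 for miR-708-5p. With 2 of 5 higher and 0 of 5 lower, the family stood on a background of 8.53% higher and 7.82% lower among 422 miRNAs with 30 or more reads over both libraries, where higher and lower mean a share at least 2-fold apart with an interval that excludes 1. The median log2 ratio of the 2 listed in both libraries was 1.30, against 0.03 over all 144 such miRNAs. To be listed, a miRNA needed 219 RPM in B16 exosomes but 1.26 RPM in B16 cells, so these 144 were selected for a high level in B16 exosomes. Both calls were lost with TMM factors, at 1.22-fold each, and both turned round under the authors' own totals, at 6.85-fold lower each.

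The common factor could be followed without any scaling. miR-151-3p exceeded miR-28a-3p 15.3-fold in B16 exosomes (11.7 to 20.3) and 15.3-fold in B16 cells (14.8 to 15.8), a ratio between these libraries of 0.9997 (0.763 to 1.31). In JB6 exosomes the excess was 19.04-fold (18.6 to 19.5), which is 1.25 times that of B16 cells (1.20 to 1.30). The ratio of B16 exosomes to JB6 exosomes was 0.802 (0.612 to 1.05), with an interval that includes 1.

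Between B16 exosomes and JB6 exosomes, which sets vesicles of a melanoma line against those of a normal skin line, neither of the listed 3p strands passed the size rule. Cell line, strain, disease state and library depth all differ in this pair and cannot be told apart. miR-28a-3p was 1.24-fold lower in B16 exosomes (ratio 0.805, 0.609 to 1.04) and miR-151-3p 1.55-fold lower (ratio 0.645, 0.603 to 0.690). miR-28a-5p and miR-151-5p were not resolved, and miR-708-5p was listed at 0 in both. Of the 4 tested members 0 were higher and 0 lower, on a background of 31.3% higher and 11.7% lower among 300 miRNAs. The median log2 ratio of the 2 members was -0.47, against 2.62 over the 131 miRNAs listed in both. To be listed, a miRNA needed 219 RPM in B16 exosomes but 2.22 RPM in JB6 exosomes. The 131 were thus selected for a high level in B16 exosomes, which raises their median, so it is not an even background for the members. Under other scalings both became lower in B16 exosomes, at 6.41-fold for miR-28a-3p and 7.997-fold for miR-151-3p with TMM factors, and at 8.10-fold for miR-28a-3p and 10.1-fold for miR-151-3p with DESeq2 size factors. The listed 0 of miR-708-3p in B16 exosomes put its ratio to JB6 exosomes at 0.586 or less, which did not reach the size rule. It became lower in B16 exosomes under 5 of the 10 alternatives, by at least 8.81-fold with TMM factors and at least 11.1-fold with DESeq2 size factors. At its JB6 share, 15.4 reads would be expected in a library of the B16 exosomes' size.

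JB6 exosomes set against B16 cells gave the deepest pair, although cell line, strain, disease state and vesicle against cell all differ at once and cannot be told apart. The strands split. miR-151-3p was 3.82-fold higher in JB6 exosomes (3.78 to 3.85) and miR-28a-3p 3.06-fold higher (2.94 to 3.18). miR-151-5p was 15.4-fold lower (10.8 to 22.9), miR-28a-5p 9.91-fold lower (7.66 to 13.1) and miR-708-5p at least 18.4-fold lower, with 9.56-fold as the interval limit nearest to 1. The partner strand miR-708-3p was 10.6-fold higher (9.26 to 12.1). Of the 5 members 2 were higher and 3 lower, on a background of 26.1% higher and 60.7% lower among 501 miRNAs, so being lower was common in this pair of libraries. The median log2 ratio was -0.85 over the 4 members listed in both and -3.31 with miR-708-5p at its bound, against -1.47 over the 305 miRNAs listed in both. Every direction held under all scalings tried. The calls held too, except that of miR-28a-5p, which stood at 1.66-fold lower with DESeq2 size factors.

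**Figure D4:**
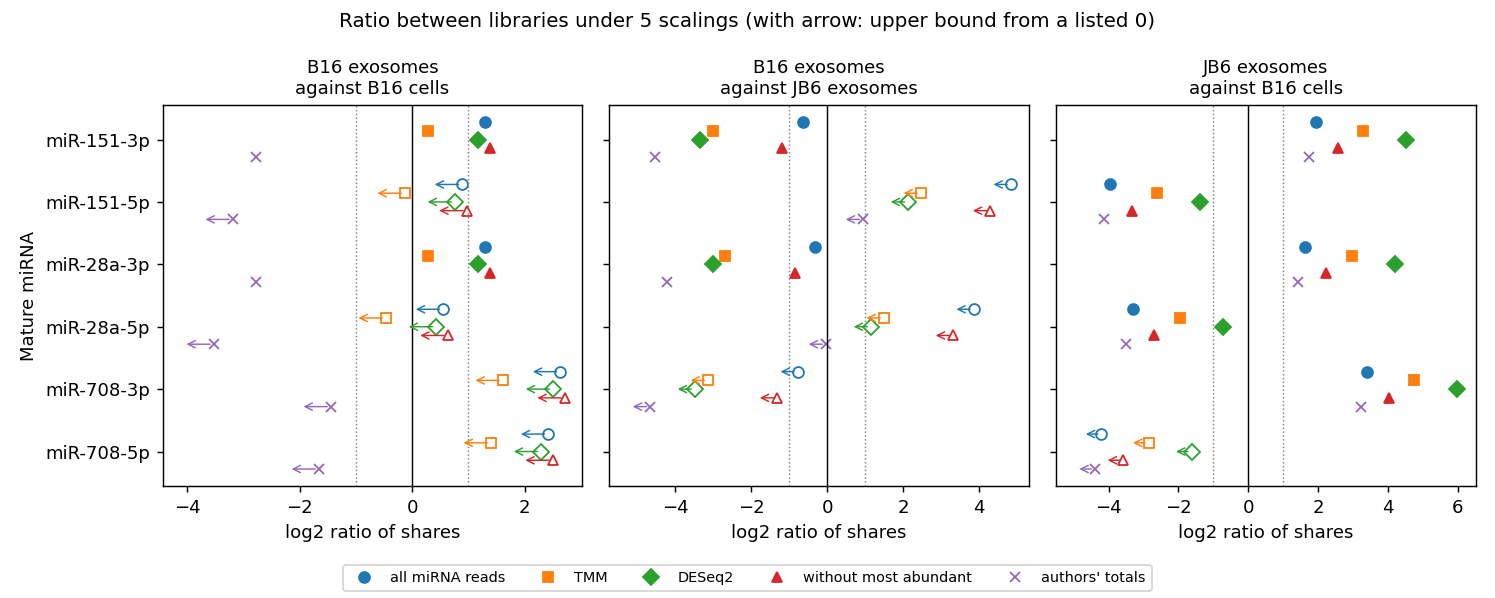
The log2 ratio of shares for each strand in 3 comparisons (the first-named library over the second), under 5 scalings shown by marker, with dotted lines at 2-fold. Symbols with an arrow are upper bounds from a listed 0; in JB6 exosomes against B16 cells the 3p strands lie right of 0 and the 5p strands left of 0 under each scaling, while in B16 exosomes against B16 cells the 3p strands cross 0 with the authors' totals.

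The 2 members listed in all 3 libraries were each other's closest match. Among 131 other miRNAs listed in all 3, the one whose log2 shares, each centred on its own mean, lay nearest to miR-28a-3p was miR-151-3p at a Euclidean distance of 0.26, and the converse held. Next for both came miR-221-3p, at 0.37 from miR-28a-3p and 0.62 from miR-151-3p, and then miR-1981-5p, at 0.65 and 0.90. miR-221-3p had 919.5 RPM in B16 exosomes, 804 RPM in JB6 exosomes and 338 RPM in B16 cells. miR-1981-5p had 1861 RPM in B16 exosomes, 1233 RPM in JB6 exosomes and 601 RPM in B16 cells. Both were lowest in B16 cells, like the 2 members. Between the exosome libraries neither passed the size rule, at 1.14 times the JB6 share in B16 exosomes for miR-221-3p (0.823 to 1.55) and 1.51 times for miR-1981-5p (1.20 to 1.87), and with TMM factors both were lower in B16 exosomes. With 3 libraries this likeness is a description only.

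Other miRNAs traced to transposable elements were set beside the family. Of 10 such entries, 6 from LINE2 (miR-325, miR-374b and miR-374c), 2 from a mariner DNA transposon (miR-340) and 2 from a MIR element (miR-335), 7 were tested in JB6 exosomes against B16 cells and all 7 were lower, on the background of 60.7% lower. Over all 501 miRNAs tested, the share that was lower fell to 40.3% with TMM factors and 26.7% with DESeq2 size factors. With TMM factors 4 of the 7 were lower and with DESeq2 size factors 4 were, namely miR-340-5p, miR-340-3p, miR-374b-5p and miR-335-3p. The miR-374c-5p and miR-374c-3p entries were then unresolved, and miR-335-5p was neither with TMM factors and 2.07-fold higher with DESeq2 size factors. By shares of all miRNA reads, miR-340-5p had 71 reads in B16 exosomes, 603 in JB6 exosomes and 20026 in B16 cells, and its share was 18.8-fold lower in JB6 exosomes than in B16 cells (17.4 to 20.5). miR-374b-5p had 33 reads in B16 exosomes, a listed 0 in JB6 exosomes and 6731 reads in B16 cells, at least 424-fold lower in JB6 exosomes than in B16 cells. The hairpins of miR-374b and miR-374c overlap on opposite strands, which leaves their counts uncertain if strand was ignored. miR-335-3p had 13 reads in JB6 exosomes and 965 in B16 cells, 42.1-fold lower (24.5 to 79.4). The strand balance of miR-340 and miR-335 moved toward 5p. In JB6 exosomes against B16 cells the 3p share was 4.59% against 12.2% for miR-340 and 29.5% against 85.9% for miR-335. In B16 exosomes against B16 cells 3 of the 7 tested entries were neither higher nor lower and 4 were not resolved. With TMM factors 2 were lower, on a background of 22% lower among all 422 miRNAs tested. Under the authors' totals 4 were lower, on a background of 60.9%.

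The JB6 exosome library also stood apart in some markers of liver, red blood cells and muscle. The 3 liver markers held 25.2% of its miRNA reads, against 0.0963% in B16 exosomes and 0.0686% in B16 cells. That share was nearly all miR-122-5p, with 1129522 of the 1135141 reads, whereas miR-194-5p was 3.89-fold lower in JB6 exosomes than in B16 cells (3.22 to 4.72). The 4 red blood cell markers held 1.48% of the JB6 exosome reads, with all 4 at 0 in B16 exosomes and 0.00402% of the reads of B16 cells, where miR-144-3p was at 0. The entries miR-486a-5p and miR-486b-5p have identical counts, and counted once the markers held 0.748% in JB6 exosomes and 0.00209% in B16 cells. Of those 33620 JB6 exosome reads, 32994 were of the miR-486 entries, with 606 of miR-451a and 20 of miR-144-3p. The 3 muscle markers held 0.371%, with all 3 at 0 in B16 exosomes and 1 of 3 listed in B16 cells, at 11 reads. Nearly all of this JB6 exosome share was miR-206-3p, with 16619 of 16665 reads, beside 25 of miR-133a-3p and 21 of miR-1a-3p. With these 10 liver, red blood cell and muscle markers left out of the totals (chosen after seeing the data), the same 5 calls stood in JB6 exosomes against B16 cells. Among all 501 miRNAs tested there, 142 were then higher and 274 lower. miR-151-3p was 5.23-fold higher and miR-28a-3p 4.19-fold higher. In B16 exosomes against JB6 exosomes miR-151-3p became lower, at 2.12-fold, with 43 of all 300 miRNAs tested lower. Whether material of such cells contributed the 3p strands was not tested. Of the 2 melanocyte markers, miR-211-5p had 83 reads in B16 exosomes, a listed 0 in JB6 exosomes and 21080 in B16 cells. The other, miR-204-5p, had a listed 0 in B16 exosomes, 14 reads in JB6 exosomes and 60 in B16 cells. At its JB6 share, 0.142 reads of miR-204-5p would be expected in a library of the B16 exosomes' size. Of 3 epithelial markers JB6 exosomes listed 1, miR-203-3p with 13 reads, and of 3 leukocyte markers 2, with 110 reads together.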

How the data were processed

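Small RNA was sequenced from B16 exosomes, JB6 exosomes and B16 cells, 1 library each. Per the submitters' processing notes, bcl2fastq, BWA and the build mm10 were used; versions, miRNA release, use of strand and handling of multiply matching reads are not stated in those sources. The deposited files list raw read counts per mature miRNA, with nothing between 1 and 9, and a value in RPM that the authors computed from a larger total of unstated content (847694 in B16 exosomes, 5626936 in JB6 exosomes, 8721363 in B16 cells). No p-value was computed, as each group has 1 library.

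Shares were counts over the sum of all miRNA counts. For every miRNA the ratio of shares and its exact conditional binomial (Clopper-Pearson) 95% interval were computed with Python 3.11.15 and scipy 1.17.1, at 30 or more reads over both libraries. A ratio of at least 2-fold whose interval excluded 1 was called. A listed 0 was set to 9 reads and gave a bound, which leaves out counting error. Ratios between 3p to 5p ratios have Woolf log-odds intervals. Without molecular identifiers, reads are not independent molecules. The ratio code was tested on simulated data. TMM factors came from edgeR 4.0.16 and size factors from DESeq2 1.42.0 (R 4.3.3). Beside the members and their hairpins' other entries, the miRNAs named were up to 4 of each list, rank neighbours, and the 3 nearest in pattern. The members and lists were chosen with earlier results of these data known. Transposon origins are background, and host genes come from GENCODE M21.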

Additional observations from a re-analysis of the deposited data

How the results depend on the processing

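Of 168 values of single miRNAs under 10 alternatives per comparison, 145 kept their call or stayed without one, 17 gained a call as lower, 4 lost one and 2 turned round. The 145 include values under other read minimums, which could not change the call of a miRNA already tested. They also include bounds from a listed 0, which have no direction. Some of these moved across 1, as for miR-28a-5p in B16 exosomes against B16 cells, at 1.46 by shares and 0.723 with TMM factors. The 2 were miR-151-3p and miR-28a-3p in B16 exosomes against B16 cells under the authors' totals, with ratios of 0.146 each. In that comparison 2 members were called, but 0 with TMM factors, 1 when the interval bound itself had to reach 2-fold, and 5, all lower, under the authors' totals. Among all 422 miRNAs tested, 7.82% were lower by shares, 22% with TMM factors and 60.9% under the authors' totals. With the stricter bound 23 of the 422 were higher and 14 lower. In B16 exosomes against JB6 exosomes 0 were called, but 2 with TMM factors, 2 with DESeq2 size factors and 2 under the authors' totals. It was 1 without the 10 most abundant miRNAs of each library and 1 without the liver, red blood cell and muscle markers. All of these calls were lower. Among all 300 miRNAs tested, 11.7% were lower by shares, and 32.3%, 36.3%, 51%, 14.7% and 14.3% under these 5 alternatives in the same order. In JB6 exosomes against B16 cells 5 were called, and 4 to 5 under the alternatives. Among all 501 miRNAs tested, 131 were higher and 304 lower by shares, so calls were common in this pair. With TMM factors 165 were higher and 202 lower, and with DESeq2 size factors 204 and 134. Relative to the shares, scaling moved every log2 ratio of B16 exosomes against B16 cells by -1.02 with TMM and -4.08 with the authors' totals, of B16 exosomes against JB6 exosomes by -2.37 and -3.89, and of JB6 exosomes against B16 cells by 1.35 and -0.19, with 2.58 for DESeq2. Which total is right was not tested. Strand shares did not change with the authors' normalized values. With a listed 0 taken as 0 reads, the 3p share became 100% for miR-28a and for miR-151 in B16 exosomes and 100% for miR-708 in JB6 exosomes. The read minimum decides only which miRNAs are tested, so a minimum of 10 or no reads could not change the call of a member already tested. With a minimum of 100 reads, miR-28a-5p and miR-151-5p were no longer tested in B16 exosomes against JB6 exosomes. Counting identical entries once changed no call of a member, but it moved the log2 ratios by only 0.00014, -0.0007 and 0.00085 in the 3 comparisons. Depth limited the B16 exosome library, where a miRNA under 219 RPM could not be listed. No paired analysis was possible because each group has 1 library.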
